A study of Homo sapiens with 10 samples.

Results

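The genes of the DNA replication machinery were examined across 10 RNA sequencing libraries of the established human lung cancer cell lines H460 and A549. The 54 genes were chosen by symbol, not by their measured values, among the 46427 genes listed for each library, and all 54 were found. They encode the proteins that recognize and license origins, unwind DNA, copy it, supply its nucleotides and rebuild chromatin behind the fork. H460 cells contributed 3 parental libraries from untreated cells and 4 drug-resistant libraries, namely 1 of cisplatin-resistant (CR), 2 of paclitaxel-resistant (PR) and 1 of doxorubicin-resistant (DR) cells. CR cells had received 4 µM cisplatin, PR cells 5 nM paclitaxel and DR cells 0.5 µM doxorubicin, in each case for 3 days with a further 3 days in fresh medium, after which the re-attached survivors were taken. One more H460 library and 1 A549 library came from tumor sphere (TS) cells, labelled CTC after the culture method, which were grown in suspension on poly-HEMA with B27, bFGF and EGF and had been passaged repeatedly. The last library was of A549 cells in ordinary 2D culture with serum. Drug-resistant cells were thus survivors of a short exposure rather than clones selected over many passages, and the study's general mention of separate experiments does not name the sequencing libraries, so it is not known whether replicates were separate cultures and p-values measure the spread between these libraries.

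As background, replication starts when the origin recognition complex, CDC6 and CDT1 load the ring-shaped MCM2-7 helicase onto DNA in G1. The kinase CDC7 with its activator DBF4 then lets CDC45 and GINS join the helicase, and polymerases alpha, delta and epsilon copy the unwound strands around the sliding clamp PCNA. Many of these genes are transcribed as cells approach S phase, under E2F factors that RB proteins hold back in resting cells, so their mRNA is widely used as a mark of proliferating cells.

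Between 59499787 and 89541774 reads were counted on genes per library. The lowest read count of any of the 54 genes was 106, for CDC45 in PR replicate 2, so that each gene was measured well above zero in each library. The epithelial keratins KRT8 and KRT18 were at or above 190 FPKM in each library, whereas EPCAM stayed at or below 1.04 FPKM (fragments per kilobase of transcript, scaled to library size, which allows levels of genes to be compared per length). The adenocarcinoma and alveolar markers NKX2-1, NAPSA, SFTPB and SFTPC were all below 1 FPKM in each library, although the study calls both lines lung adenocarcinoma, and the leukocyte markers PTPRC and CD3E did not exceed 0.157 FPKM. CD68, a lysosomal protein used as a macrophage marker, was between 15.03 and 16.91 FPKM in parental and between 30.7 and 57.9 FPKM in drug-resistant libraries, and it was 69.8 FPKM in A549 TS against 19.6 FPKM in A549 2D cells. KRT19, a further epithelial keratin, was between 138 and 738 FPKM in the H460 libraries but 3.57 FPKM in A549 2D and 68.3 FPKM in A549 TS cells. The epithelial marker CDH1 went the other way. It did not exceed 0.0266 FPKM in the H460 libraries and was 9.29 FPKM in A549 2D and 11.9 FPKM in A549 TS cells. LYZ stayed below 1 FPKM except in A549 TS cells, with 37.7 FPKM. Among 6 fibroblast markers, 3 were below 1 FPKM in each library, and the summed FPKM was between 14.1 and 28.2 in parental, between 6.10 and 21.1 in drug-resistant and 28.0 in H460 TS libraries. COL3A1 was between 13.6 and 26.5 FPKM in parental and between 2.496 and 7.217 FPKM in drug-resistant libraries, COL1A1 was between 0.0848 and 0.193 and between 0.783 and 6.51 FPKM, and LUM was 26.6 FPKM in H460 TS against at most 2.76 FPKM in parental cells. The erythroid marker HBA1 was between 1.45 and 3.91 FPKM in parental and between 0.0966 and 0.506 FPKM in drug-resistant libraries. The part of these markers in the results was not tested. Parental replicate 3 had the lowest parental FPKM for 46 of the 54 genes. PR replicate 2 was the lowest of the 4 drug-resistant libraries for 43 genes and was below PR replicate 1 for 53. It was also the library with the fewest reads. No share of all tested genes is given for these counts, so whether they are particular to the replication genes is not known. The 54 genes took between 0.386% and 0.562% of the counts in parental libraries and between 0.112% and 0.172% in drug-resistant libraries.

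The mean level of the replication genes was lower in each drug-resistant library than in each parental library. The mean log2(FPKM + 1) over the 54 genes was 4.60, 4.51 and 3.97 in parental replicates 1 to 3 (mean 4.36 ± 0.340, SD, n = 3). It was 2.87 in CR, 3.02 and 2.43 in PR replicates 1 and 2, and 2.75 in DR cells (mean 2.77 ± 0.253, SD, n = 4), so the highest drug-resistant library lay well below the lowest parental one. H460 TS cells reached 4.37, below parental replicates 1 and 2 and above parental replicate 3. A549 cells had 4.47 in 2D and 3.83 as spheres. In these bulk samples, fewer cells in S phase and less of each mRNA per cell cannot be told apart.

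**Figure D1:**
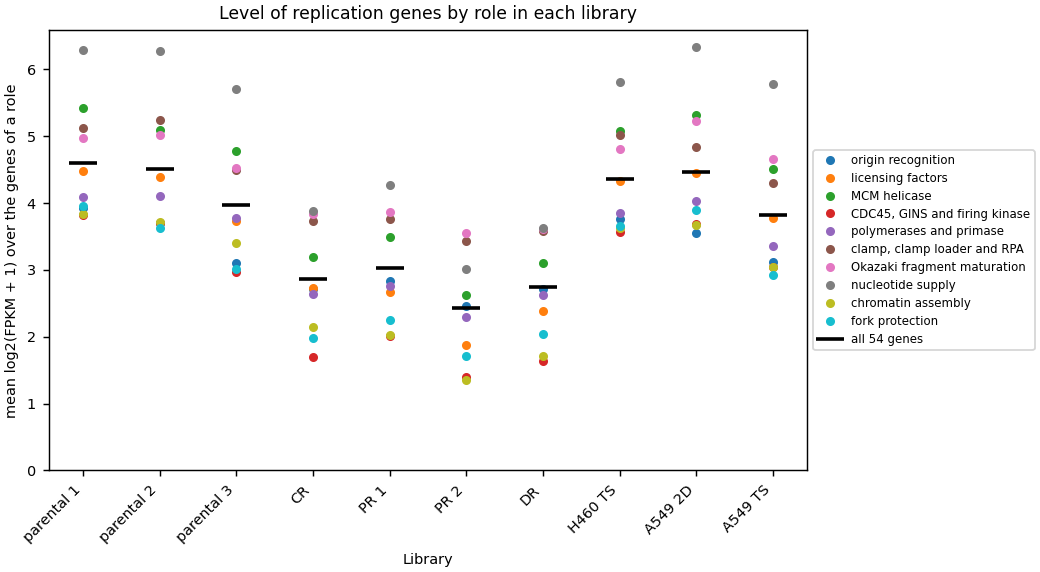
Mean log2(FPKM + 1) over the genes of each role (colored points) and over all 54 genes (black bars), for each of the 10 libraries. The black bars of the 4 drug-resistant libraries lie between 2.43 and 3.02, below those of all other libraries, and the nucleotide supply genes drop the most.

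Gene by gene, the 4 drug-resistant libraries were compared with the 3 parental libraries with edgeR's quasi-likelihood test on read counts. P-values were adjusted by Benjamini-Hochberg over the 18398 genes tested. The 4 libraries come from 3 drugs, of which only paclitaxel has 2 libraries, and were entered as 1 group. The spread in this test, and in the SD above, thus includes differences between drugs. Of the 54 genes, 52 were lower at an adjusted p under 0.05 and 0 were higher. Over all tested genes, 15.3% were lower and 18.5% were higher. The median log2 fold change of the 54 genes was -1.97, against 0.06 for all tested genes. With upper-quartile scaling in place of TMM, the median of all genes was 0.23 and the calls over all genes went from 2823 lower and 3397 higher to 2032 lower and 4210 higher, with 50 of the 54 genes lower. With TMM scaling, ORC4 and ORC5 were the genes that did not pass. For 49 genes each drug-resistant library was below each parental library, as were 13.6% of all tested genes. The exceptions were ORC2, ORC3, ORC4, ORC5 and RPA2, and in each of them parental replicate 3 was the library that overlapped. Both forms of library name, which may mark batches, held parental and drug-resistant libraries. All 54 genes were lower in drug-resistant cells within each form, with median log2 differences of -1.32 (2 parental and 1 drug-resistant library) and -1.90 (1 and 3 libraries). No share of all tested genes is given for these 2 counts.

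**Figure D2:**
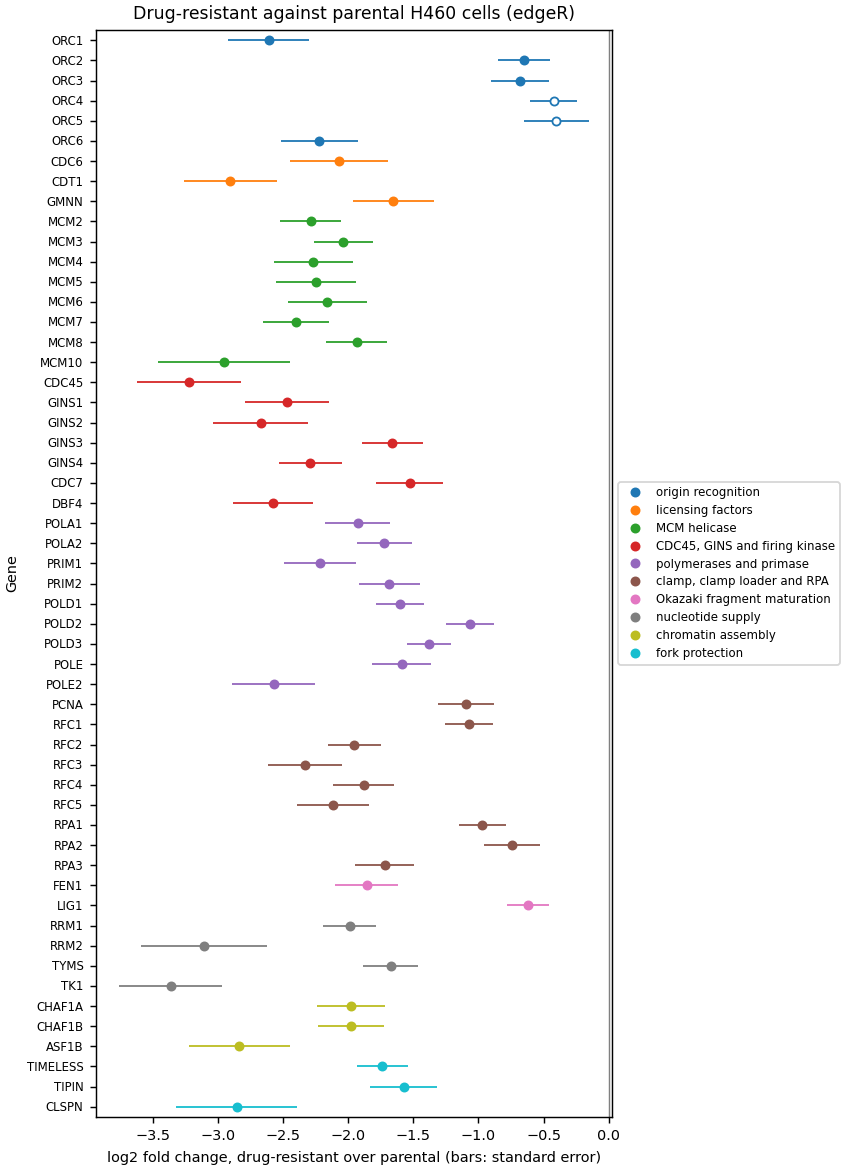
edgeR log2 fold change of each gene in drug-resistant (n = 4) over parental (n = 3) H460 cells, colored by role, with standard errors as bars and open circles for the genes that did not pass. All 54 points lie left of 0, from -3.36 for TK1 to -0.40 for ORC5, and ORC2 to ORC5 lie nearer 0 than ORC1 and ORC6.

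In the origin recognition complex 4 of 6 subunits passed the test. ORC1 (chr1:52372829-52404459 on GRCh38), the large subunit whose level is known to oscillate through the cell cycle, had an FPKM of 17.0, 11.3 and 8.94 in parental replicates 1 to 3. It had 2.098 in CR, 3.31 and 1.34 in PR, and 1.99 in DR cells, with no overlap. The log2 fold change was -2.61 (SE 0.31, adjusted p = 0.000371). ORC6 (chr16:46689643-46698394), the smallest subunit, likewise went from 32.2, 23.8 and 14.6 to between 3.91 and 6.97, a log2 fold change of -2.22. The core subunits ORC2 to ORC5 had fold changes nearer 0, and the difference from ORC1 and ORC6 was not tested. ORC2 had 11.2, 10.5 and 6.56 in parental cells and between 5.77 and 7.12 in drug-resistant cells, so the groups overlapped, and it fell by 0.65 on the log2 scale (SE 0.20, adjusted p = 0.0295). ORC3 fell by 0.68. ORC4, at 5.68, 5.71 and 3.82 FPKM in parental and between 3.73 and 4.56 in drug-resistant cells, had a log2 fold change of -0.42 (SE 0.18, adjusted p = 0.0970). ORC5 had 18.6, 16.6 and 8.13 in parental and between 10.8 and 13.3 in drug-resistant cells, and its log2 fold change was -0.40 (SE 0.25, adjusted p = 0.234). All 4 drug-resistant libraries therefore exceeded parental replicate 3 for ORC5. The FPKM ratio of ORC1 to ORC2 within a library was between 1.08 and 1.53 in parental cells and between 0.230 and 0.477 in drug-resistant cells.

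**Figure D3:**
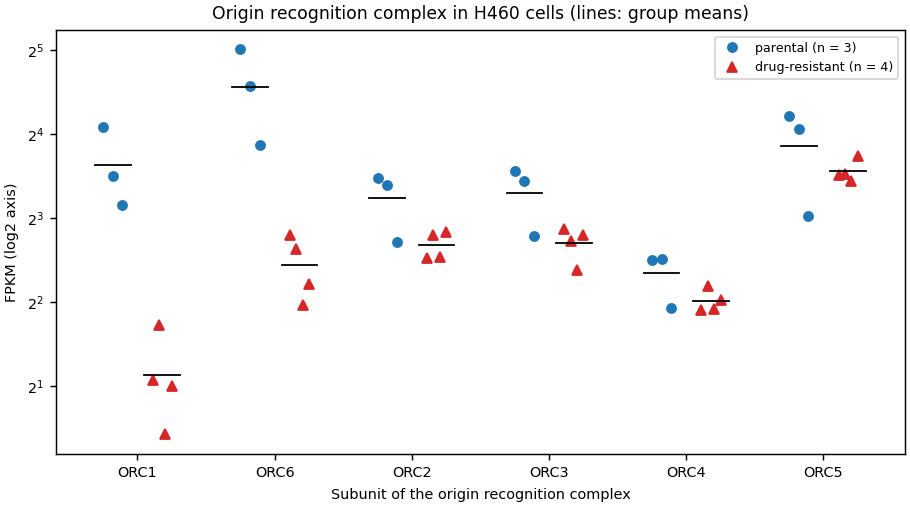
FPKM of the 6 origin recognition subunits in parental (circles, n = 3) and drug-resistant (triangles, n = 4) H460 libraries on a log2 axis, with lines at the group means. ORC1 and ORC6 separate fully, while ORC2 to ORC5 overlap with parental replicate 3, the lowest circle of each subunit.

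The licensing factors fell as well. CDC6 (chr17:40287633-40304657), the ATPase that recruits the helicase to origins, had 20.4, 18.5 and 9.55 FPKM in parental libraries and 6.40 in CR, 5.14 and 2.25 in PR and 4.92 in DR cells. The log2 fold change was -2.07 (SE 0.38, adjusted p = 0.00273). CDT1 (chr16:88803213-88809258), its partner in loading, had 16.0, 14.1 and 18.9 FPKM in parental libraries and 3.08 in CR, 3.35 and 1.14 in PR and 1.84 in DR cells, a log2 fold change of -2.90 (SE 0.35, adjusted p = 0.000391). CDT1 was 1 of the 8 genes for which parental replicate 3 was not the lowest parental library. Geminin (GMNN), the inhibitor of CDT1, fell by 1.65 on the log2 scale, and the difference from CDT1 was not tested. The FPKM ratio of CDT1 to GMNN was 0.542, 0.475 and 1.85 in the parental libraries and between 0.189 and 0.390 in the drug-resistant libraries.

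All subunits of the MCM2-7 helicase dropped by similar amounts, with log2 fold changes between -2.40 for MCM7 and -2.04 for MCM3. MCM2 (chr3:127598223-127622436) had 44.3, 28.7 and 31.8 FPKM in parental cells, against 7.98 in CR, 9.91 and 6.14 in PR and 6.96 in DR cells. Its log2 fold change was -2.29 (SE 0.23, adjusted p = 0.000229). MCM7 was the most abundant subunit per length, at between 106 and 159 FPKM in parental and between 20.5 and 37.9 FPKM in drug-resistant cells. Its ratio to MCM2 was between 3.32 and 4.34 in parental and between 2.91 and 3.83 in drug-resistant libraries, so the balance between these 2 subunits overlapped between the groups. MCM8, which is not part of the replicative ring, fell by 1.93. MCM10 (chr10:13161554-13211104), which helps to activate the loaded helicase, had a lower fold change than any ring subunit, a difference that was not tested. It had 13.8, 9.15 and 5.29 FPKM in parental, 1.43 in CR, 2.39 and 0.395 in PR and 0.973 in DR cells, a log2 fold change of -2.95 (SE 0.51, adjusted p = 0.00204). The FPKM ratio of MCM10 to MCM2 was between 0.166 and 0.319 in parental and between 0.0644 and 0.242 in drug-resistant libraries, so the groups overlapped.

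The factors that turn the loaded ring into an active helicase had a median log2 fold change of -2.47 over 7 genes, all of them called. CDC45 (chr22:19479459-19520612) had 22.7, 22.8 and 16.6 FPKM in parental libraries, 2.74 in CR, 3.65 and 0.845 in PR and 2.19 in DR cells. Its log2 fold change of -3.22 (SE 0.40, adjusted p = 0.000407) was the second lowest of the 54. Among the subunits of GINS, which completes the helicase together with CDC45, GINS1, GINS2 and GINS4 fell by 2.47, 2.67 and 2.29 on the log2 scale and GINS3 by 1.66. Of the kinase pair, the activator DBF4 fell by 2.58 and the catalytic subunit CDC7 by 1.53. DBF4 had 11.5, 10.6 and 5.55 FPKM in parental and between 1.05 and 2.63 in drug-resistant cells.

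Among the 9 polymerase and primase genes, all were called lower and the median log2 fold change was -1.68. POLA1, the catalytic subunit of the polymerase that makes the first stretch of DNA, had 17.7, 14.1 and 11.4 FPKM in parental and 3.80 in CR, 5.34 and 2.71 in PR and 4.44 in DR cells. It fell by 1.93 on the log2 scale (SE 0.25, adjusted p = 0.000495). The primase subunit PRIM1 fell by 2.22 and its partner PRIM2 by 1.68. In polymerase epsilon, the catalytic subunit POLE fell by 1.59 and the accessory subunit POLE2 by 2.57. In polymerase delta, the catalytic subunit POLD1 fell by 1.60, POLD3 by 1.38 and POLD2 by 1.07. POLD2 was the most abundant of these genes and still had between 38.2 and 51.8 FPKM in drug-resistant cells, against between 79.05 and 89.34 in parental cells.

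The clamp, its loader and the single-strand binding protein RPA had a median log2 fold change of -1.72 over 9 genes, all of them called. PCNA (chr20:5114953-5126626) had 218, 222 and 129 FPKM in parental libraries and 107 in CR, 99.3 and 88.2 in PR and 83.9 in DR cells, so it remained the most abundant of the 54 genes in each drug-resistant library. Its log2 fold change was -1.10 (SE 0.22, adjusted p = 0.00401). RFC2 to RFC5, the small subunits of the clamp loader, fell by between 1.88 and 2.33, while the large subunit RFC1 fell by 1.07. Within the RPA trimer, which also serves DNA repair, RPA3 fell by 1.72, RPA1 by 0.97 and RPA2 by 0.74. RPA2 had 32.1, 29.05 and 16.8 FPKM in parental and between 15.7 and 18.02 in drug-resistant cells, and overlapped with parental replicate 3 alone.

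FEN1, the nuclease that trims Okazaki fragments, and LIG1, the ligase that joins them, were both called lower. The difference between their fold changes was not tested. FEN1 had 51.9, 49.3 and 27.4 FPKM in parental and 13.7 in CR, 15.2 and 10.2 in PR and 11.4 in DR cells, a log2 fold change of -1.86 (SE 0.24, adjusted p = 0.000488). LIG1 (chr19:48115445-48170603) had 17.6, 19.7 and 17.7 FPKM in parental and 12.9 in CR, 12.2 and 11.4 in PR and 11.1 in DR cells. Its groups were separate, but its log2 fold change was only -0.62 (SE 0.16, adjusted p = 0.0153).

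Nucleotide supply held TK1 and RRM2, with the lowest and the third lowest fold change of the 54 genes. TK1 (chr17:78174075-78187233), the thymidine salvage kinase, had 60.2, 66.6 and 48.9 FPKM in parental libraries and 7.21 in CR, 9.70 and 2.32 in PR and 5.02 in DR cells. With a log2 fold change of -3.36 (SE 0.39, adjusted p = 0.000354), or 10.3-fold lower, it had the largest decrease among them in this fit. RRM2 (chr2:10120698-10131419), the S-phase subunit of ribonucleotide reductase, had 126, 103 and 64.1 FPKM in parental and 12.1 in CR, 22.9 and 3.79 in PR and 9.86 in DR cells, a log2 fold change of -3.10 (SE 0.49, adjusted p = 0.00128). The large subunit RRM1 of the same enzyme had 54.4, 57.1 and 37.1 FPKM in parental and between 10.9 and 15.5 in drug-resistant cells, and fell by 1.99 (SE 0.20, adjusted p = 0.000237). The FPKM ratio of RRM2 to RRM1 was therefore between 1.73 and 2.31 in parental cells and between 0.346 and 1.48 in drug-resistant cells. TYMS, which makes thymidylate, fell by 1.67. Its exons overlap ENOSF1 on the other strand over 39.15% of their bases, and whether counting used strand is not stated.

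Behind the fork, the chromatin assembly subunits CHAF1A and CHAF1B both fell by 1.98. CHAF1A had 15.2, 12.6 and 10.5 FPKM in parental and 4.19 in CR, 4.46 and 2.29 in PR and 2.96 in DR cells (SE 0.26, adjusted p = 0.000525). ASF1B, the histone chaperone of proliferating cells, fell by 2.83, from 22.6, 21.7 and 17.8 FPKM to between 1.21 and 4.45. In the fork protection complex, TIMELESS had 25.6, 21.1 and 15.7 FPKM in parental and 5.73 in CR, 7.91 and 6.24 in PR and 7.08 in DR cells, and fell by 1.74 (SE 0.20, adjusted p = 0.000308). Its partner TIPIN fell by 1.57. Claspin (CLSPN, chr1:35720218-35769967), the mediator of the checkpoint kinase CHK1, had 8.45, 5.97 and 3.36 FPKM in parental and 0.849 in CR, 1.44 and 0.218 in PR and 0.637 in DR cells, a log2 fold change of -2.86 (SE 0.47, adjusted p = 0.00158).

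**Figure D4:**
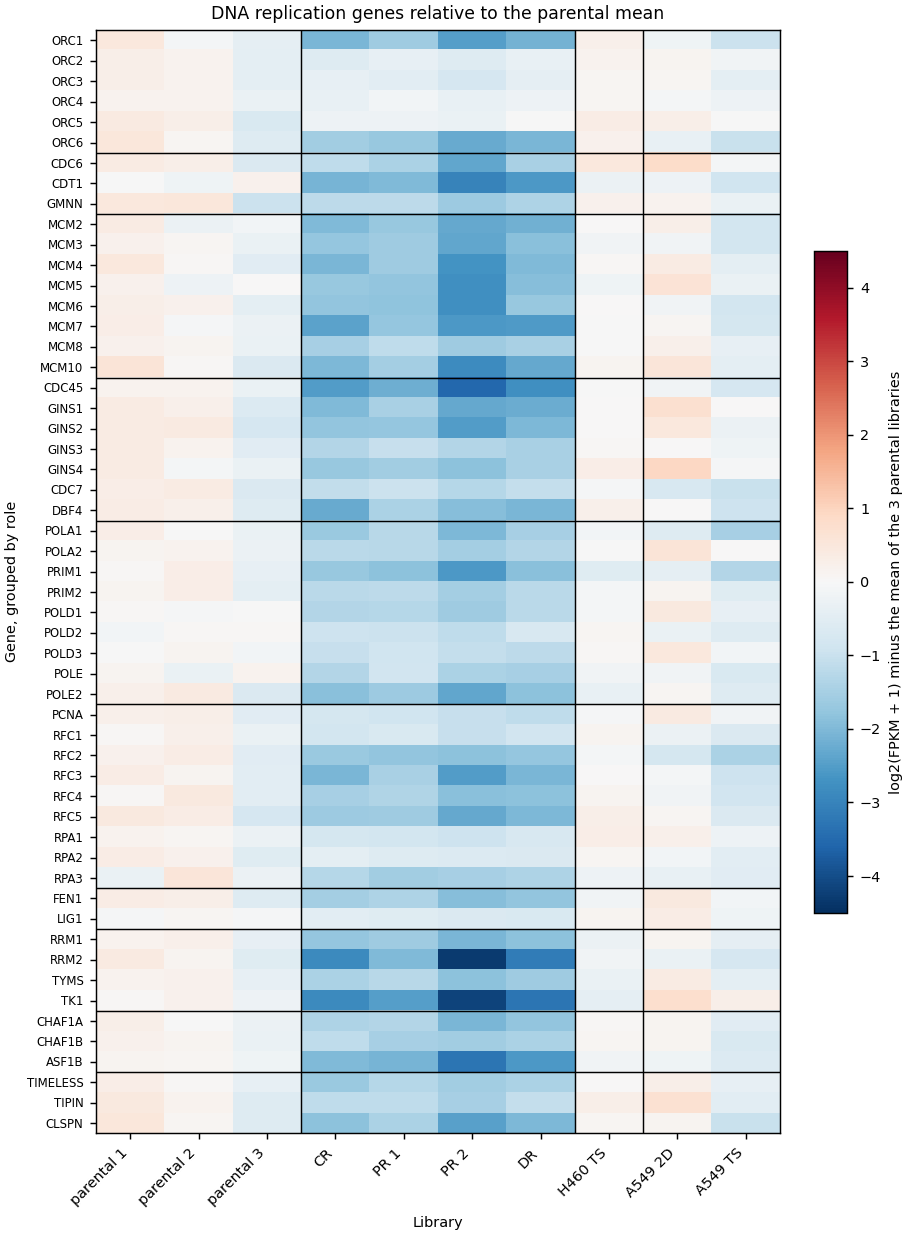
Log2(FPKM + 1) of each of the 54 genes (rows, in the order of roles) minus the mean of the 3 parental libraries, for each library (columns), with blue for lower and red for higher. The CR, PR and DR columns are blue for nearly all rows, palest at ORC2 to ORC5, RPA2 and LIG1 and darkest in PR replicate 2, while the H460 TS column is close to white.

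Each drug was then compared with the parental mean on its own. CR and DR cells have 1 library each, so these differences have no replicate check, and the 3 comparisons share the parental libraries. In CR cells, 44 of the 54 genes were more than 2-fold lower on log2(FPKM + 1), as were 4.85% of the 18398 tested genes. In DR cells 45 were, against 3.91% of all genes, and in the mean of the PR libraries 44 were, against 4.05%. The median difference of the 54 genes was -1.54 for CR cells, -1.66 for PR cells and -1.65 for DR cells. No gene was more than 2-fold higher in any of the 3. In all 3 comparisons ORC1 and ORC6 were the only subunits of their complex past 2-fold, and all of the licensing factors, the MCM genes, the CDC45, GINS and kinase genes, the nucleotide supply, chromatin assembly and fork protection genes were past it.

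PR cells have replicates and were tested against the parental cells alone. Of the 54 genes 50 were lower by edgeR and 0 were higher, among 19430 tested genes of which 10.6% were lower and 17.5% were higher. The median log2 fold change of the 54 genes was -2.13. With upper-quartile scaling, the calls over all genes went from 2064 lower and 3391 higher to 1347 lower and 4252 higher, with 48 of the 54 genes lower. Without PR replicate 2, 23 of the 54 passed in a fit with 1 PR library, as did 1.42% of 19748 tested genes in the lower direction, with all 54 fold changes negative and a median of -1.83. The steepest were TK1 at -3.48 (SE 0.57, adjusted p = 0.00399), CDC45 at -3.41 (SE 0.58, adjusted p = 0.00439) and ASF1B at -3.17 (SE 0.50, adjusted p = 0.00360). They were followed by CDT1 at -3.08 (SE 0.48, adjusted p = 0.00350), RRM2 at -3.07 (SE 0.70, adjusted p = 0.0116) and MCM10 at -2.95 (SE 0.72, adjusted p = 0.0159). The least changed gene that passed was LIG1 at -0.75 (SE 0.23, adjusted p = 0.0380). ORC2 at -0.79 (SE 0.28, adjusted p = 0.0650), RPA2 at -0.88, ORC5 at -0.60 (SE 0.33, adjusted p = 0.203) and ORC4 at -0.52 (SE 0.27, adjusted p = 0.168) did not pass.

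The other roles' leading genes also fell in PR cells. ORC1 had a log2 fold change of -2.62 (SE 0.46, adjusted p = 0.00479), CDC6 of -2.52 (SE 0.48, adjusted p = 0.00626) and MCM2 of -2.35 (SE 0.34, adjusted p = 0.00285). POLA1 was at -2.06 (SE 0.36, adjusted p = 0.00487), PCNA at -1.23 (SE 0.29, adjusted p = 0.0134) and FEN1 at -1.97 (SE 0.34, adjusted p = 0.00484). RRM1 was at -2.12 (SE 0.30, adjusted p = 0.00260), CHAF1A at -2.14 (SE 0.35, adjusted p = 0.00421) and TIMELESS at -1.78 (SE 0.29, adjusted p = 0.00407). The PR libraries differed in how far these genes fell. On log2(FPKM + 1), 9 genes were more than 2-fold apart between them, against 0, 9 and 5 between the pairs of parental libraries. RRM2, for example, had 22.9 FPKM in replicate 1 and 3.79 in replicate 2.

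Whether the replication genes differed between drugs was tested by setting the PR libraries against the CR and DR libraries. No gene of the 19770 tested was called by edgeR (0%), and 2479 had an unadjusted p under 0.05, while DESeq2 called 94 lower and 326 higher and limma called 3 lower and 98 higher. None of the 54 genes was called by any of these tools. At the unadjusted level 1 of the 54 passed, CHAF1B, with a log2 fold change of -0.68 (SE 0.27, unadjusted p = 0.0334, adjusted p = 0.349). CDC6 had the lowest value, -0.76 (SE 0.46, adjusted p = 0.526), followed after CHAF1B by MCM6 at -0.67 (SE 0.36, adjusted p = 0.475), PRIM1 at -0.62 (SE 0.32, adjusted p = 0.465), MCM5 at -0.61 (SE 0.37, adjusted p = 0.524) and ASF1B at -0.58 (SE 0.49, adjusted p = 0.666). At the other end stood DBF4 at 0.62 (SE 0.36, adjusted p = 0.513), MCM7 at 0.21 (SE 0.33, adjusted p = 0.845), GINS1 at 0.19 (SE 0.43, adjusted p = 0.897) and POLE at 0.18 (SE 0.30, adjusted p = 0.852). The first gene of each role lay between CDC6 and ORC1, which was at 0.01 (SE 0.42, adjusted p = 0.994). The sign of the difference rested on which PR library was used. The median of the 54 genes was -0.21 with both, -0.63 without PR replicate 1 and 0.06 without PR replicate 2. PR replicate 1 is also the only drug-resistant library of its form of library name. Among the drug-resistant libraries alone, this library and its form thus cannot be told apart, but the parental libraries hold both forms. With the form as a term, the median was -0.36 and 53 of the 54 values were negative, against 43 without it, and 0 were called. Over all tested genes, 51.3% of values were negative with the term and 47.9% without it. With standard errors of these sizes, the libraries do not show that the drugs acted alike on these genes.

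Other genes of DNA replication, listed beside the 54, moved in the same direction for the most part. Of 36 such genes, 28 were lower in drug-resistant cells, 2 were higher and 6 did not pass, with a median log2 fold change of -1.58. Over all tested genes, 15.3% were lower and 18.5% were higher. PCLAF, a PCNA-binding protein, fell by 3.89 (SE 0.46, adjusted p = 0.000352) and TICRR, which helps to fire origins, by 3.27 (SE 0.45, adjusted p = 0.000710). The 2 that rose were RRM2B, at 1.05 (SE 0.19, adjusted p = 0.00280), and POLD4, at 1.01 (SE 0.31, adjusted p = 0.0277). RRM2B, the p53-inducible counterpart of RRM2, had 5.63, 7.21 and 5.17 FPKM in parental and 11.7 in CR, 17.2 and 12.0 in PR and 12.8 in DR cells. It thus had a higher FPKM than RRM2 in DR and in PR replicate 2, the libraries in which RRM2 was lowest. POLD4, the smallest subunit of polymerase delta, had between 7.32 and 16.2 FPKM in parental and between 19.7 and 32.3 in drug-resistant cells, whereas POLD1, POLD2 and POLD3 all fell.

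Among 17 regulators of entry into S phase, 10 were lower, 1 was higher and 6 did not pass. The shares over all tested genes, for this and the following lists, were 15.3% lower and 18.5% higher. E2F8 and E2F2 fell by 3.12 (SE 0.42, adjusted p = 0.000591) and 2.61 (SE 0.40, adjusted p = 0.00118). CDKN1A, which encodes the CDK inhibitor p21, rose by 4.06 (SE 0.32, adjusted p = 0.000102), from between 20.7 and 33.0 FPKM in parental cells to between 343 and 654 FPKM. E2F6, a repressor of the family, had a log2 fold change of 0.15 (SE 0.16, adjusted p = 0.472). All 20 genes of a mitosis list were lower, with a median of -3.63. They ran from CENPF at -4.39 (SE 0.70, adjusted p = 0.00138) and CCNB2 at -4.03 (SE 0.48, adjusted p = 0.000369) to CDK1 at -3.32 (SE 0.44, adjusted p = 0.000582) and NDC80 at -3.11 (SE 0.39, adjusted p = 0.000419). Of 12 housekeeping genes, 5 were lower, 0 were higher and the median was -0.41. HPRT1 fell by 1.40 (SE 0.21, adjusted p = 0.000925) and ACTB by 1.25 (SE 0.25, adjusted p = 0.00428), while GUSB was at 0.56 (SE 0.23, adjusted p = 0.0867) and B2M at 0.51 (SE 0.22, adjusted p = 0.0970).

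Since the genes moved together, their promoters were searched for the letters of E2F sites. Promoters of RefSeq (GRCh38.p14, from 250 bases before to 50 after the start) matched 48 of the 54 genes. One of the words TTTGGCGC, TTTCCCGC, TTTCGCGC and TTTGCCGC was present on either strand in 20 of the 48 (41.7%), against 3.325% of all 27305 promoters and 5.01% of those of 13134 tested genes. The word CCAAT, bound by NF-Y, was present on either strand in 58.3% of the 48 in 35.7% of all promoters and in 36.0% of those of tested genes. TTTGAA or TTCGAA, the letters of the CHR element of mitotic genes, were present in 4 of the 48 (8.33%), against 16.6% of all promoters and 11.8% of those of tested genes. The drug-resistant log2 fold changes had a median of -2.05 for the 20 genes with an E2F word and -1.92 for the 28 without, with ranges of -2.90 to -0.62 and of -3.36 to -0.40. A match describes letters only and shows no binding. No other forms of these words were searched, so lack of a match does not show lack of a site.

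Windows of 80 bases are shown for the 4 genes in which such a window with an E2F word, in capitals, lies before the start and clear of annotated exons, namely 2 helicase subunits, the first polymerase and the clamp. Each is read 5′ to 3′ on the strand of its gene. MCM6 holds 4 matches, which form 2 overlapping pairs on opposite strands, and it fell by 2.16 on the log2 scale.
MCM6: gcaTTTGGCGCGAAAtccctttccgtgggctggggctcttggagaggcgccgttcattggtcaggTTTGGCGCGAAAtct
MCM3: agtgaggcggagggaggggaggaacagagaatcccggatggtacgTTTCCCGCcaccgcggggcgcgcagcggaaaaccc
POLA1: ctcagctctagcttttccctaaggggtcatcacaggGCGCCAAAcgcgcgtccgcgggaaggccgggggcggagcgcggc
PCNA: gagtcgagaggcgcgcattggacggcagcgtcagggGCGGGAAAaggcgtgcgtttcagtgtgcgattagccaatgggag

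They lie at chr2:135876519-135876598 (MCM6), chr6:52284882-52284961 (MCM3) and chr20:5126638-5126717 (PCNA) on the minus strand, and at chrX:24693745-24693824 (POLA1) on the plus strand. Other genes that were steeply lower have none of the E2F words in their promoters. Among them, ORC6 and MCM10 hold 2 CCAAT words each, given in capitals in the same kind of window, at chr16:46689535-46689614 (ORC6) and chr10:13161409-13161488 (MCM10), both on the plus strand.
ORC6: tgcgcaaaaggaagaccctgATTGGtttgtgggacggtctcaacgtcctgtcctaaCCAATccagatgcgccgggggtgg
MCM10: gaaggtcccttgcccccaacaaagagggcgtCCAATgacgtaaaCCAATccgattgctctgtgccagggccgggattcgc

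CDC45 and RRM2 likewise have none of the E2F words searched, and 4 and 3 CCAAT words. The promoters of CDC45 and MCM10 do hold TTTGGCGG, which differs from the searched TTTGGCGC in its last letter and was not counted. TK1, with the largest decrease, has neither an E2F word nor CCAAT in its promoter window, and ORC4 and ORC5, the 2 genes that did not pass, also have neither. GMNN, RFC2 and FEN1 have neither as well, with log2 fold changes of -1.65, -1.95 and -1.86. LIG1 has an E2F word and a log2 fold change of -0.62, and ORC3 has both words and -0.68. Whether the words go with the fold changes was not tested.

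TS cells were compared with 2D cells in both lines to ask whether these genes also differed in suspension growth. In H460 TS cells 0 of the 54 genes were more than 2-fold lower than the parental mean on log2(FPKM + 1), as were 1.33% of 18372 tested genes, and 0 were more than 2-fold higher. The median difference was 0.02, and -0.17 without parental replicate 3. Between the lowest and the highest parental library lay 46 of the 54 genes, as did 57.0% of all tested genes. For most of them parental replicate 3 set the lower end, and against parental replicates 1 and 2 alone 17 genes lay between both, 33 below both and 4 above both, where 37.2% of all tested genes lay between and 35.8% below. CDC6 (21.5 FPKM, against at most 20.4), POLD2 (92.0, against at most 89.3), RPA1 (37.4, against at most 34.2) and LIG1 (19.8, against at most 19.7) lay just above it. CDT1, PRIM1, POLD1 and TK1 lay below each parental library. Of these, PRIM1 had the lowest difference from the parental mean on log2(FPKM + 1), -0.54, with 20.3 FPKM against at least 23.2. All 54 genes were higher in H460 TS cells than in each of the 4 drug-resistant libraries, as were 30.6% of all tested genes.

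In A549 cells all 54 genes were lower in the TS than in the 2D library, as were 51.9% of all tested genes, with a median difference of -0.65, but only 4 were more than 2-fold lower, as were 2.04% of all tested genes. These 4 were TIPIN (16.7 FPKM in 2D and 6.83 in TS), CLSPN (6.15 and 2.33), MCM2 (41.2 and 19.0) and MCM10 (13.4 and 6.17). With a pseudocount of 0.1 in place of 1 there were 7. The smallest differences were those of ORC4 (4.66 and 4.09), RPA3 (13.9 and 12.3) and GINS3 (10.1 and 8.69). Each group is 1 library, so these differences have no replicate check. In A549 cells in 2D, 31 of the 54 genes were within the parental H460 range, as were 31.0% of all tested genes, with 16 above it and 7 below. Against parental replicates 1 and 2 alone 9 were within, 16 above and 29 below. No share of all tested genes is given for these counts or for those above and below the full range, so they are not read further. For 49 genes A549 TS cells remained above each of the drug-resistant H460 libraries, as did 36.4% of all tested genes, but that comparison also crosses cell lines.

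**Figure D5:**
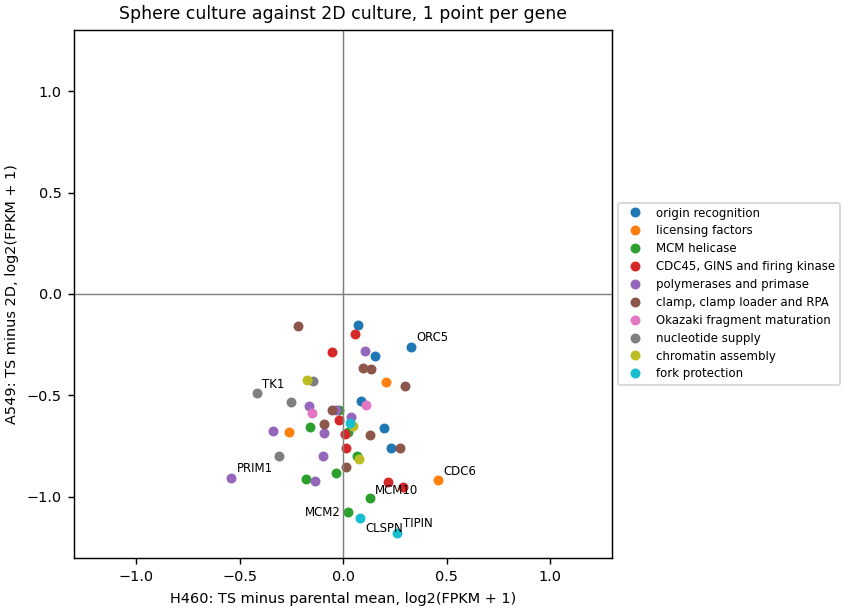
Difference in log2(FPKM + 1) between TS and 2D cells for each of the 54 genes, in H460 cells (horizontal axis, against the parental mean) and A549 cells (vertical axis), colored by role. All points lie below 0 on the A549 axis, down to -1.18 for TIPIN, and spread around 0 on the H460 axis, from -0.54 for PRIM1 to 0.46 for CDC6.

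With the cell line as a covariate, edgeR called 0 of the 54 genes between the 2 TS and the 4 2D libraries, and DESeq2 and limma also called 0. Of 18372 tested genes, 0.0435% were lower and 0.147% were higher. The log2 fold change was negative for 50 of the 54 genes and for 51.2% of all tested genes. The median of the 54 genes was -0.25, and it was -0.66 without the H460 TS library and 0.00 without the A549 TS library. At the unadjusted level, 1363 of the 18372 tested genes had a p under 0.05 by edgeR. Among the 54, PRIM1 was the 1 gene that did, at -0.70 (SE 0.25, unadjusted p = 0.0255, adjusted p = 0.522). It was followed by POLE2 at -0.55 (SE 0.34, adjusted p = 0.962), TYMS at -0.48 (SE 0.24, adjusted p = 0.817), POLA1 at -0.48 (SE 0.28, adjusted p = 0.933), MCM5 at -0.46 (SE 0.27, adjusted p = 0.922) and CDT1 at -0.45 (SE 0.26, adjusted p = 0.917). Only ORC5 at 0.09 (SE 0.34), ORC2 at 0.03 (SE 0.26), ORC4 at 0.02 (SE 0.25) and POLD2 at 0.02 (SE 0.22), with an adjusted p of 1.00 each, were positive. Of the first genes of each role other than POLA1, MCM2 was lowest at -0.40 (SE 0.32) and CDC6 highest at -0.09 (SE 0.37), again with an adjusted p of 1.00. A decrease common to both lines was thus not detected with these libraries. In simulated data this fit recovered 39.8% of 4-fold and 0% of 2-fold changes, so 0 calls do not show that these genes were unchanged.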

How the data were processed

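For each gene the authors deposited a raw read count. They also deposited FPKM values, which scale the reads by transcript length and library size. The submitters' processing notes name bcl2fastq 1.8.4, Trimmomatic, HISAT2 2.1.0, StringTie 2.1.3b and GRCh38, and how counting treated strand and shared reads is not stated. Counts of 1 were rarer than counts of 2 in all libraries, so a count may not be 1 independent read. Deposited TPM values were not used. The 54 genes, the gene lists and the tests were chosen with earlier results of these data known.

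Counts were compared with edgeR 4.0.16 (TMM scaling, filterByExpr, quasi-likelihood F-test, Benjamini-Hochberg, threshold 0.05) in R 4.3.3, with the standard error taken as the log2 fold change over the square root of F. Drug-resistant and PR cells were set against parental cells, PR against CR and DR cells with parental libraries in the fit, and TS against 2D cells with cell line as a covariate. Single libraries were compared on log2(FPKM + 1), which understates changes of low genes, with a 2-fold threshold and no test. Alternatives were DESeq2 1.42.0, limma 3.58.1 on log2(FPKM + 1), other scalings, filters and pseudocounts, each library left out, the 2 forms of library name as a term and a replicate block. Full statistics are given for the 6 lowest and 4 highest of the 54 genes in each test and, in drug-resistant and PR against parental cells, the first gene of each role, whose values in the other tests are given by their range, and for the 2 lowest and 2 highest genes of each other list. The fits were tested on simulated data. Positions are from GENCODE 29 on GRCh38. In 15 of the 54 genes, exons overlap another listed gene, and in 2 of them (TYMS and TIPIN) by over 10% of exonic bases. Python 3.11.15, numpy 2.4.6, pandas 2.3.3 and matplotlib 3.10.9 were used for the rest.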

Additional observations from a re-analysis of the deposited data

Results flagged for a closer look

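Among the 4 drug-resistant libraries, PR replicate 2 stood far from the others for 3 of the 54 genes, with MCM6 at 6.08 FPKM, PRIM2 at 2.04 FPKM and TIPIN at 2.94 FPKM, where the other libraries lay close together. Chance alone sets a sample apart in about 1 of 20 such groups.

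For 4 genes the H460 TS library was above each parental library while the A549 TS library was below the A549 2D library. Since all 54 genes were lower in the A549 TS library, these are simply the 4 genes above the parental range in H460 TS cells. No share of all tested genes is given for this count, so it is not read further. The H460 TS minus parental differences on log2(FPKM + 1) were 0.46 for CDC6, 0.10 for POLD2, 0.30 for RPA1 and 0.11 for LIG1, and the A549 differences were -0.92, -0.28, -0.45 and -0.55. Whether the lines differ was not tested, and A549 has 1 library of each kind.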

How the results depend on the processing

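Under the scalings, filters, tools and left-out libraries tried, between 49 and 54 of the 54 genes were lower in drug-resistant cells, 0 were higher, and all 54 fold changes stayed negative. Over all tested genes, between 36.3% and 49.9% of fold changes were negative in these fits. In PR cells, between 23 (without PR replicate 2) and 54 (without parental replicate 3) were lower when a library was left out, and 23 rests on 1 PR library that is assumed to vary like the others. PR and parental replicates 1 and 2 share a number and also the form of library name, and nothing in the labels says that they were made together, with a correlation of 0.179 between their differences over 10703 genes. With the replicate as a block, 54 genes were lower, as without the block in the same 4 libraries. The drug-resistant minus parental mean level of the 54 genes on log2(FPKM + 1) was -1.24 with FPKM scaled to the same upper quartile, against -1.59. In H460 TS cells, between 17 (without parental replicate 3) and 40 genes were within the parental range with a parental library left out, against 46, a check chosen after the data were seen. In A549 TS cells, 7 genes in place of 4 were more than 2-fold lower with a pseudocount of 0.1. For single genes, 7 of 266 alternative values lost the call and 2 gained it in drug-resistant cells, 16 of 266 lost it and 10 gained it in PR cells, and 29 of 266 in PR against CR and DR and 24 of 228 in TS against 2D changed sign with no call in either fit. Over all genes, calls in PR cells fell to 280 lower and 670 higher without PR replicate 2 and to 766 and 1302 without PR replicate 1. They were 1168 lower and 1858 higher by limma, 1296 and 1446 with the FPKM filter, 1430 and 2355 with the form of library name as a term, and 1187 and 2383 without parental replicate 2, against 2064 and 3391. In drug-resistant cells the lowest higher count was 2200, without parental replicate 2. PR against CR and DR gave 67 lower and 442 higher without a filter and 3 and 63 without parental replicate 1, and TS against 2D gave 226 and 311 by DESeq2, between 0 and 132 lower and between 6 and 199 higher with a library left out, and 5 and 14 with the FPKM filter, with 0 of the 54 genes in each. Depth was not varied.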
